A study of Mus musculus with 12 samples.

Results

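The signalling lymphocytic activation molecule (SLAM) family was examined through 7 genes, the receptor genes Slamf1, Slamf6, Slamf7, Cd48, Cd84 and Ly9 and the adaptor gene Sh2d1a. They were taken by symbol from the 19505 genes that had a row on the arrays, and each of the 7 was represented by exactly 1 row. The samples were regulatory T cells from the lymph nodes of female mice aged 4 to 8 weeks, sorted for CD4 and CD25, for the absence of CD8 and for a low level of CD45RB. There was 1 array per biological replicate, taken here as 1 mouse. One group of 6 mice was NOD, the strain that becomes diabetic spontaneously. The other group of 6 was NOD.Drak2-/-, mice of the same background lacking Drak2, a kinase encoded by Stk17b that restrains T cell receptor signalling. Values are the deposited log2 expression values, and differences are NOD.Drak2-/- minus NOD.

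SLAM family receptors are immunoglobulin-like proteins on the surface of lymphocytes and other blood cells, and most of them bind to copies of themselves on a neighbouring cell. CD48 is an exception: it is held in the membrane by a lipid anchor and binds CD2 and CD244. The cytoplasmic tails of Slamf1, Slamf6, Cd84 and Ly9 carry tyrosine motifs that bind SAP, the small adaptor encoded by Sh2d1a on the X chromosome, and SAP in turn recruits the kinase Fyn. In T cells the receptors and SAP are known for their part in the development of natural killer T cells, in interleukin 4 production and in the lasting contact between follicular helper T cells and B cells. The cluster of receptor genes is polymorphic between mouse strains, and NOD carries a different haplotype of it from C57BL/6.

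The 6 receptor genes lie together on chromosome 1, in the order Ly9, Slamf7, Cd48, Slamf1, Cd84, Slamf6, with Cd244a next to Ly9. Promoter sequences were found for 5 of the 7 genes, in RefSeq on GRCm38.p6, which is C57BL/6J and not NOD. Each runs from 250 bases before to 50 bases after the annotated start. Given here are those of Slamf1 and Cd48, whose transcripts were well above background on every array, and that of Slamf7, whose transcript was in the background range. Capitals mark matches, on either strand, to any of 7 short motifs: the TATA box TATAAA, the GC box GGGCGG, the ETS core CGGAAG, the RUNX core TGTGGT, the E box CAGCTG, the AP-1 site TGACTCA and the NF-kB core GGGACTTT. Slamf1 is at chr1:171766882-171767181 on the plus strand, Cd48 at chr1:171681742-171682041 on the plus strand and Slamf7 at chr1:171648950-171649249 on the minus strand.
Slamf1: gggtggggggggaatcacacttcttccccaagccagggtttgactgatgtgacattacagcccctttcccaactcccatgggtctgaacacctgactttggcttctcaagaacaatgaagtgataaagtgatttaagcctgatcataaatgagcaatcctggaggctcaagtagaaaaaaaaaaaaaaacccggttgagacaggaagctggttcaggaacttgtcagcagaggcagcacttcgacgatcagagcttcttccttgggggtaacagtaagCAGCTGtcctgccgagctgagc
Cd48: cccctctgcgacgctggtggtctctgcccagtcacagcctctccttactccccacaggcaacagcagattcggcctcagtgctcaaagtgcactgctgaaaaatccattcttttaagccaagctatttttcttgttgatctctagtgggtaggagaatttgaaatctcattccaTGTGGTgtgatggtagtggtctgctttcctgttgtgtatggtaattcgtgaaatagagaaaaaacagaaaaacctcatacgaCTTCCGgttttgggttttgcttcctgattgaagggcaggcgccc
Slamf7: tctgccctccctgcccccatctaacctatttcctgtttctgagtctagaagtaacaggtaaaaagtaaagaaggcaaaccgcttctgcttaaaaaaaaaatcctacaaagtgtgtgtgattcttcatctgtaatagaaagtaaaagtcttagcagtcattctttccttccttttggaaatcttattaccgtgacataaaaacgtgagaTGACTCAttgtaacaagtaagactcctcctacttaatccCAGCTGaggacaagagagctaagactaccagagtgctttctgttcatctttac

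In the Slamf1 promoter 1 E box began at position 29 after the start. The Cd48 promoter held a RUNX core that began at -76 and an ETS core on the reverse strand that began at 7. The Slamf7 promoter held an AP-1 site that began at -42 and an E box that began at -3 and spans the start. Among all 32851 promoters of that length, an E box was present in 16.3%, a RUNX core in 16.8%, an ETS core in 16.9% and an AP-1 site in 5.20%. The promoter of Cd84 held a RUNX core and an AP-1 site, and that of Slamf6 held none of the motifs. The TATA box, present in 13.6% of all promoters, and the GC box, present in 35.7%, had no match in the 5 promoters. The GC content of the 5 ran from 39% to 49%, beside a median of 52.7% over all promoters. These matches are descriptions of the reference sequence, and no binding was measured.

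Array medians over all genes lay between 5.22 and 5.34 in NOD and between 5.18 and 5.24 in NOD.Drak2-/-. Across the whole series, correlations between arrays lay between 0.968 and 0.991. Stk17b, the gene named in the genotype, ran from 10.21 to 10.80 in NOD and from 9.97 to 10.36 in NOD.Drak2-/-, so the groups overlapped. All 6 NOD.Drak2-/- arrays were below the NOD mean of Stk17b. Its log2 difference was -0.27 (SE 0.12, adjusted p = 0.517 in limma, two-sided exact permutation p = 0.0281). The sources used here do not place its probes relative to the deleted part, so Stk17b does not check the label of any single array. Of the genes behind the sort, Cd4 (9.67 in NOD and 9.87 in NOD.Drak2-/-), Cd3e (11.03 and 11.02) and Ptprc (11.55 and 11.60), which encodes CD45, were bright. Cd8a (5.02 and 5.05) was below 5.87, the average of the brightest among 23 antigenomic background rows, whose probes match nothing in the genome, while Cd8b1 (7.27 and 7.45) was above it. Il2ra, the gene for CD25, was in the background range too (4.82 and 5.00), and Foxp3 was not analysed here. Of the 13 measured regulatory T cell genes 12 were above that row, all but Il2ra, among them Ikzf2 (9.52 and 9.70) and Ctla4 (9.81 and 9.60). The name regulatory T cells rests on the sort. No other T cells were on the arrays for comparison, so these levels do not test it. The 8 measured B cell markers averaged 4.98 to 5.27 in NOD and 4.75 to 5.66 in NOD.Drak2-/-, with 7 of 8 below background and Cd79b (5.89 and 6.37) the brightest. Of the 8, 3 were higher and 5 lower in NOD.Drak2-/-, and 0 passed an adjusted p of 0.05 in limma. At an unadjusted p under 0.05 in limma 1 was higher and 2 were lower, beside 9.43% of all genes. The 10 myeloid and dendritic markers averaged 4.06 to 4.43 and 4.20 to 4.59, and all 10 were below background, with Lyz2 the brightest (5.53 and 5.81). The 6 measured natural killer and natural killer T cell markers averaged 3.89 to 4.14 and 3.78 to 4.32, with Eomes the brightest (5.84 and 6.26), and Zbtb16, the factor that defines natural killer T cells, was below background (5.42 and 5.66). The 5 plasma cell markers averaged 6.03 to 6.51 and 5.93 to 6.44. The 3 above background were Prdm1, Irf4 and Xbp1, the brightest (9.35 and 9.56). Sdc1 (4.51 and 4.14) and Jchain (2.85 and 2.81) were below the arrays' own brightest background row on every array. At an unadjusted p under 0.05 in limma, 1 myeloid and dendritic marker was higher in NOD.Drak2-/- and 1 was lower. Of the natural killer and natural killer T cell markers 2 were higher and 0 lower, and of the plasma cell markers 0 and 1. Over all genes the share at that p was 9.43%, and 0 of these markers passed an adjusted p of 0.05 in limma. In such bulk samples, fewer cells of a type and less RNA per cell cannot be told apart.

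No SLAM family transcript was called different between NOD and NOD.Drak2-/- regulatory T cells. None of the 7 genes passed an adjusted p of 0.05 in limma, beside 4 of all 19505 genes (0.0205%). At an unadjusted p under 0.05 there were 0 of the 7, beside 9.43% of all genes, and the 6 values of one genotype overlapped the 6 of the other for each of the 7 genes, whereas they did not overlap for 0.513% of all genes. The 7 log2 differences ran from -0.01 to 0.19 with a median of 0.09, against a median of -0.02 over all genes and of 0.03 over the 8128 genes with a mean above the brightest background row. The median size of the difference, whatever its sign, was 0.09 for the 7 genes and 0.13 for all genes. With only 7 genes, counts of 0 are near the shares over all genes and say little about the family. A p that misses the threshold does not show that levels were equal, so the intervals below give the differences that the arrays still allow.

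**Figure D1:**
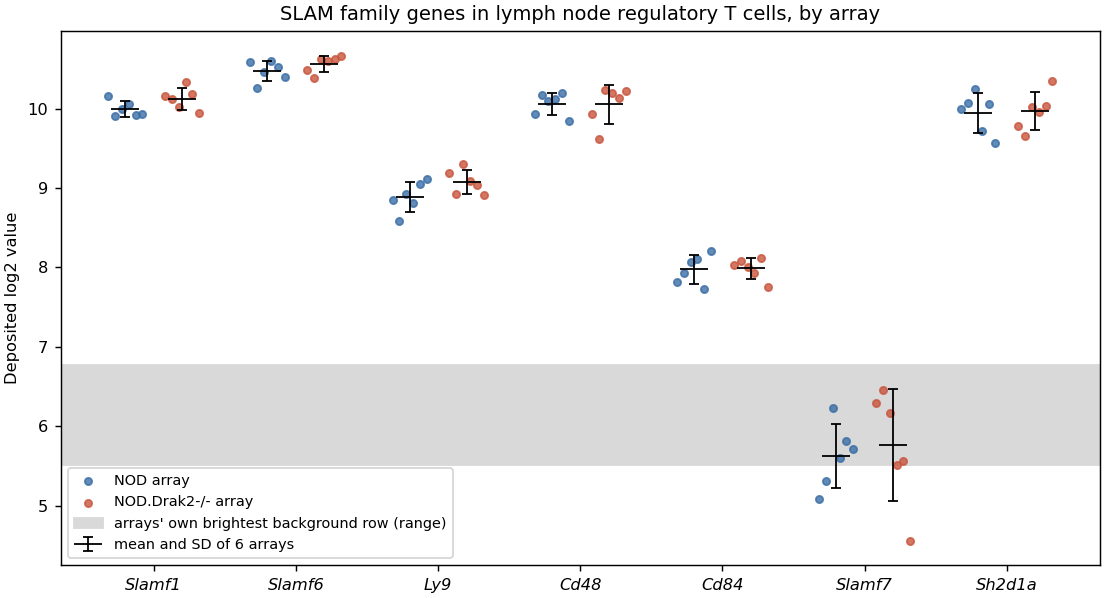
Deposited log2 values of the 7 SLAM family genes on each of the 6 NOD (blue) and 6 NOD.Drak2-/- (red) arrays, with the mean and SD of each genotype in black and the range of the arrays' own brightest background row, 5.51 to 6.77, in grey. The genotypes overlap for every gene, and of the 7 only Slamf7 lies in or below the grey band.

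Among the receptors that bind to themselves and signal through SAP, Slamf1, the founding member of the family, was bright and tight. Its log2 value ran from 9.90 to 10.16 with a median of 9.96 in NOD, and from 9.94 to 10.33 with a median of 10.14 in NOD.Drak2-/-. The highest array was NOD.Drak2-/- replicate 4, and 5 of 6 NOD.Drak2-/- arrays were above the NOD mean. Replicates 1, 2, 3 and 7 of that genotype nevertheless lay within the NOD range, and replicate 7 was its lowest. The means were 9.99 ± 0.10 (SD, n = 6) and 10.12 ± 0.14 (SD, n = 6), a log2 difference of 0.13 (SE 0.10, adjusted p = 0.691 in limma; two-sided exact permutation p = 0.0844). The 95% interval ran from -0.08 to 0.34, so the arrays allow a level between 0.944 and 1.27 times that of NOD.

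Slamf6 encodes Ly108, a receptor of T and natural killer cells. Its values ran from 10.26 through a median of 10.49 to 10.60 in NOD and from 10.39 through 10.61 to 10.66 in NOD.Drak2-/-. The 4 NOD.Drak2-/- arrays numbered 3, 4, 5 and 7 lay between 10.60 and 10.66, just above the highest NOD array, and replicates 1 and 2 lay within the NOD range. The log2 difference was 0.09 (95% interval -0.12 to 0.31, adjusted p = 0.777 in limma; exact permutation p = 0.188), and the interval spans 0.921 to 1.24 times the NOD level.

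Ly9, which encodes the receptor CD229, had the largest difference of the 7. It ran from 8.58 through a median of 8.89 to 9.11 in NOD and from 8.91 through 9.06 to 9.31 in NOD.Drak2-/-. All 6 NOD.Drak2-/- arrays were above the NOD mean of 8.89, yet NOD replicates 3, 5 and 6, at 8.93, 9.05 and 9.11, lay inside the NOD.Drak2-/- range. The means of 8.89 ± 0.19 and 9.08 ± 0.15 (SD, n = 6 each) differed by 0.19 (SE 0.12, 95% interval -0.06 to 0.43, adjusted p = 0.614 in limma; exact permutation p = 0.0866). Whatever its sign, the difference was smaller than that of Ly9 for 67.9% of all genes.

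Cd84 encodes a receptor best known from B cells, platelets and follicular helper T cells. Its values ran from 7.72 to 8.21 in NOD with a median of 8.00, and from 7.75 to 8.12 in NOD.Drak2-/- with a median of 8.02. The NOD.Drak2-/- arrays lay inside the NOD range, and the difference of 0.01 (95% interval -0.23 to 0.25, adjusted p = 0.984 in limma) changed sign with the setting.

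Slamf7, a receptor of natural killer, plasma and activated lymphoid cells that is known to signal without SAP, was not clear of background. It ran from 5.09 through a median of 5.65 to 6.23 in NOD and from 4.56 through 5.87 to 6.46 in NOD.Drak2-/-. Only 2 of the 12 arrays, replicate 3 of each genotype, had a Slamf7 value above their own brightest background row, whereas the other 6 genes were above it on 12 of 12. Slamf7 also spread most, with SDs of 0.40 and 0.70, and NOD.Drak2-/- replicates 1, 2 and 3, at 6.29, 6.46 and 6.17, stood above replicates 4, 5 and 7, at 5.52, 5.56 and 4.56. The difference of 0.13 had a 95% interval of -0.45 to 0.72 (adjusted p = 0.893 in limma; exact permutation p = 0.703), and without replicates 1 and 2 it was -0.17.

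Cd48, the lipid-anchored ligand of CD2 and CD244, had nearly equal means. In NOD it ran from 9.84 through a median of 10.11 to 10.20, and in NOD.Drak2-/- from 9.62 through 10.16 to 10.23. NOD.Drak2-/- replicate 2, at 9.62, was the lowest of the 12 arrays and lay below the next lowest of that genotype, replicate 1 at 9.93. The means of 10.06 ± 0.14 and 10.05 ± 0.24 (SD, n = 6 each) differed by -0.01 (95% interval -0.27 to 0.26, adjusted p = 0.991 in limma), and without those 2 arrays, which were left out after the data had been seen, by 0.13 (adjusted p = 0.773 in limma).

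Sh2d1a, the gene for SAP, ran from 9.56 through a median of 10.03 to 10.24 in NOD and from 9.65 through 9.99 to 10.35 in NOD.Drak2-/-. NOD.Drak2-/- replicate 7 was the highest array of all and NOD replicate 6 the lowest. The difference was 0.03 (95% interval -0.27 to 0.33, adjusted p = 0.96 in limma; exact permutation p = 0.848), which spans 0.828 to 1.25 times the NOD level.

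The receptors and SAP differed in how steady they were between mice of the same genotype. The SD within genotype was 0.12 for Slamf6 and 0.12 for Slamf1, against a median of 0.26 over the 8128 genes above background. Only 3.64% of those genes were steadier than Slamf6 and 3.89% steadier than Slamf1. Those genes include much dimmer ones, and spread was not compared among genes of like brightness. Cd84 (13.8%), Ly9 (16.6%) and Cd48 (26.0%) were also in the steadier part of the range, and Sh2d1a, with an SD of 0.25, was near the middle (45.1%). No value of the 7 genes, or of 6 further genes of the pathway, stood apart from the other 5 arrays of its genotype by Dixon's criterion at its 95% level, with 26 groups of 6 arrays examined.

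**Figure D2:**
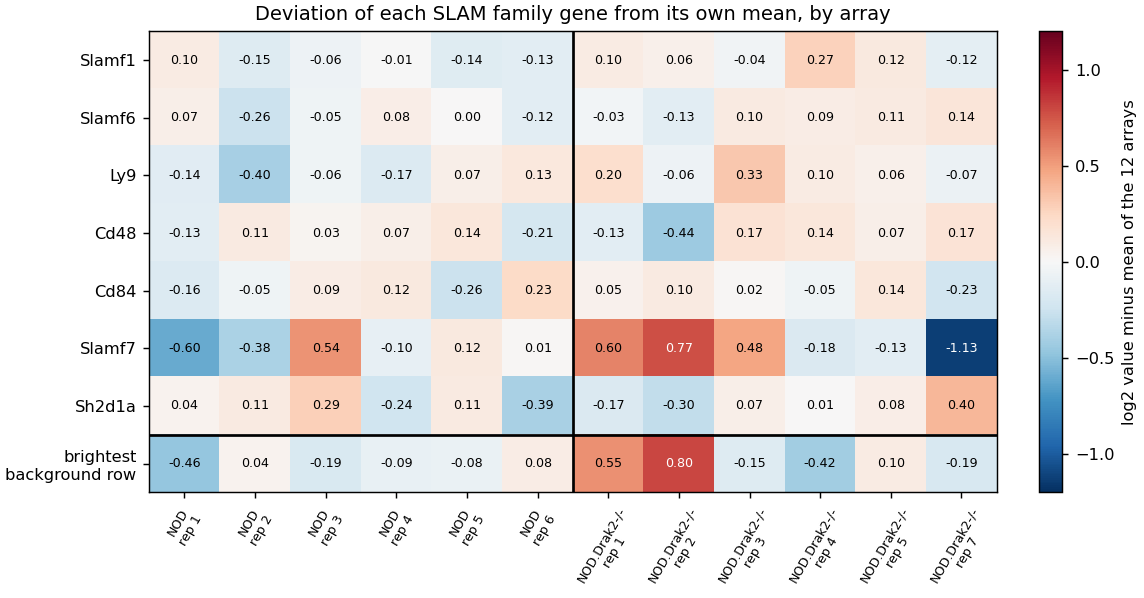
Each SLAM family gene's log2 value minus its own mean over the 12 arrays (colour and printed number), with the same for each array's brightest background row beneath and a black line between the genotypes. Slamf1 and Slamf6 lie between -0.26 and 0.27, Slamf7 spans from -1.13 to 0.77, and in NOD.Drak2-/- replicate 2 Cd48 and Sh2d1a are low where the background row is high.

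Within genotypes, the 7 genes did not move as a block from mouse to mouse. Of the 21 pairs, 11 had a positive and 10 a negative Pearson correlation of values centred within genotype over the 12 arrays, with a median of 0.02. The highest was between Cd48 and Sh2d1a (r = 0.70, rho = 0.61, n = 12 arrays) and the lowest between Cd84 and Sh2d1a (r = -0.64, rho = -0.56). Without the 2 arrays farthest from the median of Sh2d1a, NOD replicate 6 and NOD.Drak2-/- replicate 2, these fell to 0.40 and -0.46. The correlations are given as a description of values that share arrays and normalization, and were not tested.

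Several of the genes moved with the arrays' own brightest background row, which was 5.51 to 6.06 in NOD and 5.55 to 6.77 in NOD.Drak2-/-, highest in NOD.Drak2-/- replicates 1 (6.52) and 2 (6.77). Centred within genotype, Slamf6 (r = -0.72, rho = -0.64) and Cd48 (r = -0.71, rho = -0.57) were lower on arrays with a brighter row, and Slamf7 was higher (r = 0.59, rho = 0.57). For Cd48 the relation was seen in NOD.Drak2-/- (r = -0.93, n = 6) but not in NOD (r = 0.17, n = 6), and without the 2 arrays farthest in that row it was -0.41. For Slamf6 it was -0.66 in NOD and -0.90 in NOD.Drak2-/-. Slamf1 gave -0.24 over both genotypes, -0.88 in NOD and -0.06 in NOD.Drak2-/-. Over both genotypes Sh2d1a gave -0.59, Cd84 0.46 and Ly9 -0.10. These are descriptions over 12 arrays, and the part of the background row in the differences between genotypes was not tested beyond leaving out replicates 1 and 2.

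**Figure D3:**
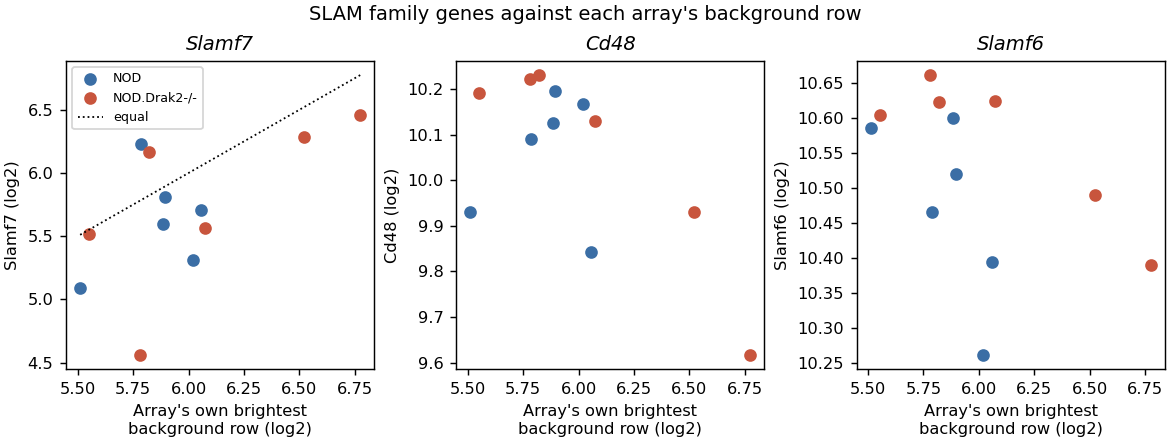
Log2 values of Slamf7, Cd48 and Slamf6 (vertical axes, each on its own range) against the brightest background row of the same array (horizontal axes, log2) for 6 NOD (blue) and 6 NOD.Drak2-/- (red) arrays, with a dotted line of equality for Slamf7. Most Slamf7 points lie under the line, and the lowest Cd48 value belongs to the array with the brightest background row, 6.77.

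The transcripts most like each member above background were also listed. Among the other 8127 genes above background, with values centred within genotype over 12 arrays, Slamf6 was most like Haus6 (r = 0.94), Nat8f1 (0.93) and Slc20a1 (0.92), and Cd48 most like Sh3bgrl2 (0.94), Septin9 (0.93) and Arel1 (0.92). Sh2d1a was most like Ociad1 (0.93), Cnep1r1 (0.93) and Gm12657 (0.93), and Cd84 most like Stag1 (0.91), Zfp704 (0.90) and Fhl3 (0.89). Ly9 was most like Hmgn1 (0.85), Phf11a (0.85) and Eif3f (0.85), and Slamf1 most like Stk11ip, Mta3 and Cops3 (0.80 each). No SLAM family gene was among the 3 nearest of another. These are the highest of 8127 correlations per gene over few arrays, given with no test.

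The partners of the receptors showed a like picture. Of 18 listed genes 16 were measured, 0 passed in limma in either direction, and 1 was at an unadjusted p under 0.05, beside 0.0205% and 9.43% of all genes. The median difference was -0.01. Lck and Nfkb1 were not analysed here. Cd2, the T cell receptor for CD48, was 10.58 ± 0.04 in NOD and 10.61 ± 0.07 in NOD.Drak2-/- (SD, n = 6 each; difference 0.03, 95% interval -0.16 to 0.22). Fyn, the kinase that SAP recruits, was 9.60 ± 0.17 and 9.70 ± 0.15 (difference 0.10, 95% interval -0.14 to 0.34, adjusted p = 0.794 in limma). The phosphatase genes Ptpn6 and Ptpn11 and the lipid phosphatase gene Inpp5d, whose products can bind the receptors' tails in place of SAP, differed by 0.10, 0.17 and 0.12.

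The remaining family genes were in the background range. Cd244a, a receptor for CD48, averaged 5.56 and 5.50 and was above its array's own brightest background row on 1 of 12 arrays. Slamf8 (3.21 and 3.17), which is best known from myeloid cells, and the SAP-related adaptor genes Sh2d1b1 (3.32 and 3.24) and Sh2d1b2 (3.95 and 3.68), best known from natural killer cells, were below it on all 12. Slamf9 was below it on all 12 as well, at 4.23 ± 0.36 in NOD and 3.76 ± 0.20 in NOD.Drak2-/- (SD, n = 6 each). It was the partner with the smallest p, with a log2 difference of -0.47 (adjusted p = 0.469 in limma; exact permutation p = 0.0195).

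**Figure D4:**
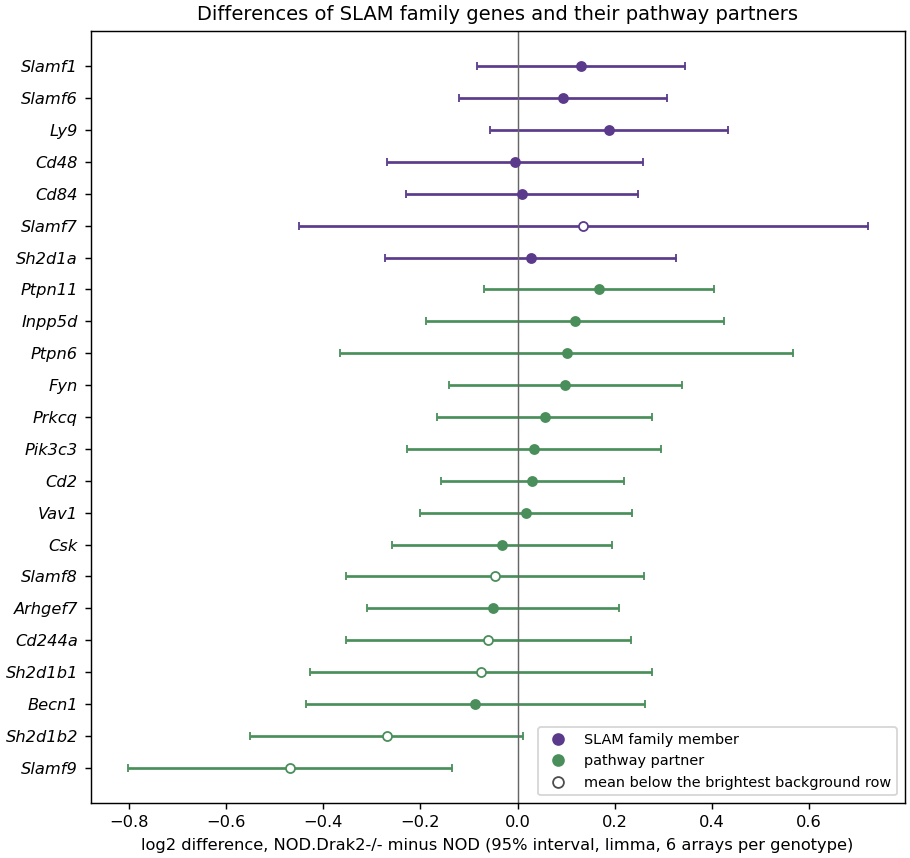
Log2 difference with its 95% interval from limma (horizontal axis, 6 arrays per genotype) for the 7 SLAM family genes (purple) and 16 measured pathway partners (green), with open circles for genes whose mean is below the brightest background row. The intervals of all 7 members include 0, and Slamf9, an open circle at -0.47, is the single partner whose interval does not.

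Genes of the follicular helper programme, in which SLAM receptors and SAP take part, were set beside the family. Of 12 measured, 0 passed in limma and 2 were at an unadjusted p under 0.05, both higher in NOD.Drak2-/-, beside 9.43% of all genes at that p, and the median difference was 0.04. These were the interleukin 4 gene Il4 (3.09 and 3.54, adjusted p = 0.444 in limma), which was below its arrays' background row on all 12, and the follicle homing receptor gene Cxcr5 (6.02 and 6.67, adjusted p = 0.469 in limma), which was above it on 8 of 12. Of the 13 measured regulatory T cell genes 0 passed in limma and 0 were at an unadjusted p under 0.05. Those with the smallest p were Ctla4, a receptor that limits costimulation (difference -0.21, adjusted p = 0.616 in limma), and Ikzf2, which encodes the transcription factor Helios (0.18, adjusted p = 0.641 in limma).

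Stk17b lies on chromosome 1 too, with 687 measured genes between Stk17b and the receptor cluster. The sources used here do not say how much of that chromosome came with the targeted allele from another strain, so an effect of Drak2 and one of linked DNA cannot be told apart. In the window of the cluster and the 5 measured genes on either side, 0 genes passed in limma, beside 0.0205% of all genes. At an unadjusted p under 0.05 in limma were the flanking genes Usf1, Alyref2 and Itln1, beside 9.43% of all genes. Itln1 was in the background range (4.67 and 4.26). The flanking genes with the smallest p were Usf1, a transcription factor gene at 5.68 in NOD and 6.29 in NOD.Drak2-/- (difference 0.61, adjusted p = 0.483 in limma), and Alyref2, in the background range at 4.88 and 4.45 (difference -0.43, adjusted p = 0.485 in limma). The NOD mean of Usf1 was also below 5.87, the average of the brightest background row. Both lie on the Cd244a side of the cluster. The differences of the cluster's receptors ran from -0.06 for Cd244a to 0.19 for Ly9.

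**Figure D5:**
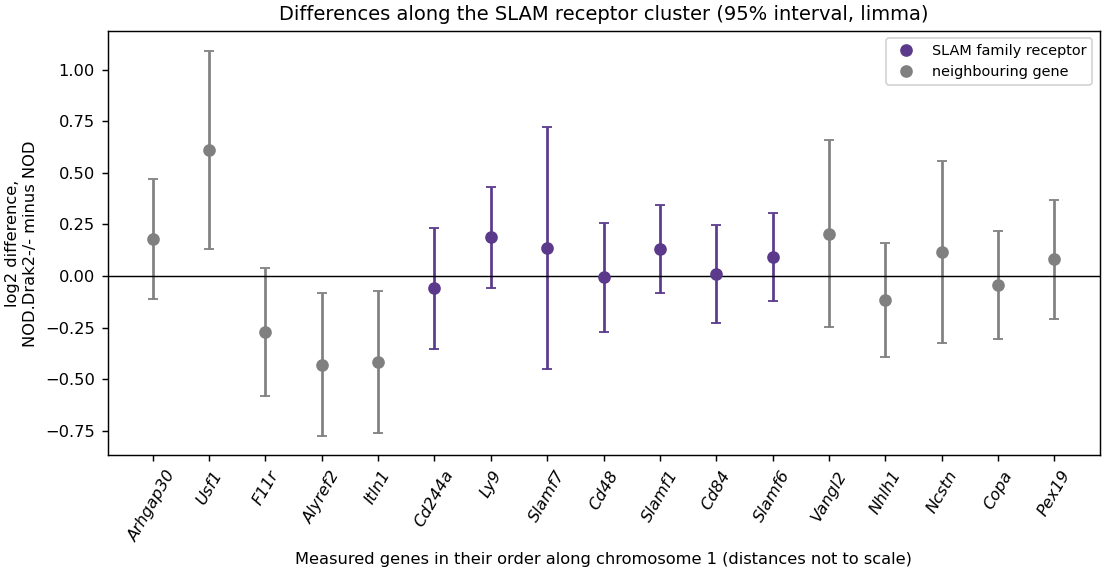
Log2 difference with its 95% interval from limma (vertical axis) for the 7 SLAM family receptor genes of the cluster, Cd244a included (purple), and the 5 measured genes on either side (grey), in their order along chromosome 1 with distances not to scale. Every receptor interval includes 0, and among the flanking genes those of Usf1, Alyref2 and Itln1 do not. Alyref2 and Itln1 are in the background range, and the NOD mean of Usf1, 5.68, is below 5.87, the average of the brightest background row. Of all genes, 9.43% were at an unadjusted p under 0.05 in limma.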

How the data were processed

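Per the labels' protocols, 125 ng of RNA from sorted regulatory T cells was labelled with a whole-transcript kit for each of 12 single-colour arrays. The values used were the authors' deposited log2 values; per the submitters' processing notes, oligo in R and RMA (background correction, normalization between arrays and probe summary) made them, and neither versions nor the genome build are given in the sources used here. Of 29129 rows 19572 carried 1 gene symbol in the platform annotation, and the brightest row per gene left 19505 genes. Every adjusted p is from limma 3.58.1 under R 4.3.3, with lmFit and eBayes and no covariate, fitted over all 19505 genes with Benjamini-Hochberg adjustment and a threshold of 0.05. Single genes also had a two-sided exact permutation test over 924 regroupings, whose smallest p is 0.00216. No counts underlie array values, so the number of arrays limits precision. Replicates are taken as single mice, since each title names a mouse and a biological replicate number. Gene order came from a RefSeq gene table of GRCm38.p6. The members, gene lists and naming rule (all 7 members, Stk17b, gate genes, further SLAM receptors and adaptors and Fyn, otherwise list genes past the threshold or the 2 with the smallest p, the brightest marker per other cell type, and the 3 most alike genes per member) were chosen with earlier results of these data known; Cd2, Ptpn6, Ptpn11, Inpp5d, Zbtb16 and Itln1 were named after their values were seen. The fit was tested on simulated data. Alternatives were a replicate block, leaving out each array, a filter on dim genes, median centring, quantile normalization, a trended robust prior, unmoderated variance, mean of rows, and B cell or myeloid marker means as covariates. Leaving out NOD.Drak2-/- replicates 1 and 2 together was added after seeing the data.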

Additional observations from a re-analysis of the deposited data

How the results depend on the processing

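Under each of the 22 alternatives 0 SLAM family genes and 0 of their partners passed the threshold, out of 7 and 16 tested, or 6 and 11 with the filter on dim genes, and apart from Slamf7 the largest difference of a family gene was 0.27 (log2, Ly9 with the replicate block). Slamf1, Slamf6 and Ly9 stayed positive under all of them, at 0.089 to 0.20, 0.051 to 0.16 and 0.13 to 0.27. The filter on dim genes, the trended robust prior and unmoderated variance leave a log2 difference unchanged by construction. So does the mean of rows, as each member had 1 row, and these settings are therefore no check of the sign. Ly9 with median centring had the smallest unadjusted limma p, 0.0468, with an adjusted p of 0.493 in limma. Median centring added the same 0.0657 to the difference of every gene. In the replicate block NOD replicate 6 and NOD.Drak2-/- replicate 7 have no partner, so neither entered the genotype difference. The other differences, none of them called, changed sign in places, and beyond these points the cause was not tested. Sh2d1a was -0.13 with the replicate block, which left out its lowest and highest arrays. Cd48 was 0.0601 with median centring and 0.0194 with the myeloid marker mean as covariate, and Cd84 was -0.0389 with quantile normalization. Without NOD.Drak2-/- replicates 1 and 2, Slamf7 was -0.17, Cd48 0.13 and Cd84 -0.0277. Leaving out 1 array at a time gave -0.0489 to 0.0819 for Cd48, -0.0420 to 0.0567 for Cd84, -0.0496 to 0.0896 for Sh2d1a and -0.00542 to 0.38 for Slamf7. The filter removed Slamf7. The count over all genes, 4, was 0 with the replicate block and with unmoderated variance, 1 with either marker covariate, 2 without NOD.Drak2-/- replicates 1 and 2, and 1 to 2 with 1 array left out. The labels do not say whether the 5 replicate numbers shared by both genotypes pair the arrays. Correlations of deviations from the genotype mean over all genes were -0.18 to 0.09 for these numbers, which does not decide it. Slamf7 and 5 partners lay in the background range, where a change in transcript may go unseen.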
